A study of Mus musculus with 12 samples.

Results

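The kynurenine pathway enzymes studied here were 10 genes, taken by name from read counts of 24062 genes: Tdo2, Ido1, Ido2, Afmid, Aadat, Kmo, Kynu, Haao, Acmsd and Qprt. They were measured by polyA RNA-seq in 12 mice, 1 library per mouse, with 3 mice in each of 4 groups. The livers came from MYC-ON FVB mice carrying both TRE-MYC and LAP-tTA, in which a promoter active in hepatocytes drives the transactivator and MYC stays on once doxycycline is withdrawn at birth. The labels give an age of 45 days for males of this cross but no age for the mice on the diets. The xenografts grew in NOD SCID mice from HCC53N, 1 line of mouse primary liver tumor cells that lacks p53 and overexpresses mutant NRAS; the labels add "MYC ON" to these tumors as well, and host stroma is part of each tumor. In both models mice received either the control diet or the No-Trp diet, which lacks tryptophan (Trp), for 21 days. No healthy liver was among these libraries, so every control liver also carried active MYC.

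Hepatocytes break down most dietary Trp through this pathway. Tdo2 opens the indole ring, Ido1 and Ido2 catalyze the same reaction, and Afmid then releases kynurenine. Kynurenine is either transaminated by Aadat to kynurenic acid or passed through Kmo, Kynu and Haao to an unstable intermediate, which Acmsd diverts toward complete oxidation and Qprt directs to NAD synthesis. Tdo2 is a textbook glucocorticoid-inducible liver gene, and Ido1 is known for its induction by interferon gamma in immune cells.

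The libraries held between 14660963 and 26085349 reads counted on genes, and 24.7% to 39.4% of reads were left uncounted. The ribosomal gene Rn45s took 12.1% of the counts of control liver 101 and at most 2.22% elsewhere. Control liver 102 stood apart from control livers 101 and 103 for several of the enzymes, so values without it are given beside the results it touches. It was picked by the values under test. Adjusted p-values without it show how far a result depends on it and are no further test. Livers 101 and 108 and xenografts 41 and 43 carried a mark of resubmission. Of the markers used to check the labels, the 25 hepatocyte markers summed to between 23921 and 205678 CPM (reads per 1000000 counted reads) in the livers. In the xenografts these markers summed to between 2104 and 5491 CPM, and none of them was at 0 in every library of a group. The 6 cholangiocyte markers summed to 87.1 to 168 CPM in livers and 2946 to 10800 CPM in xenografts. In bulk tissue, fewer cells of a type and less RNA per cell cannot be told apart.

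In the livers, the No-Trp diet was accompanied by higher Tdo2 and Afmid. Tdo2 rose 17.7-fold and Afmid 4.57-fold. Of the 10 enzymes 2 were called higher and 0 lower, at an adjusted p of at most 0.05 with a log2 fold change of at least 1 (edgeR quasi-likelihood test), whereas 9.28% of all 14122 genes tested were called higher and 7.27% lower. The median log2 fold change was 1.40 over the 10 enzymes and -0.003 over all genes tested. The groups did not overlap for 5 enzymes (Tdo2, Afmid, Aadat, Kmo and Kynu, all higher), a pattern found in 48.6% of all genes in either direction. Aadat, Ido2 and Kmo had log2 fold changes of 2.20, 2.14 and 1.86, like the 2.19 of Afmid, but were not called. Haao and Qprt differed by less than the spread between mice. Whether the change depends on the place in the pathway was not tested.

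**Figure D1:**
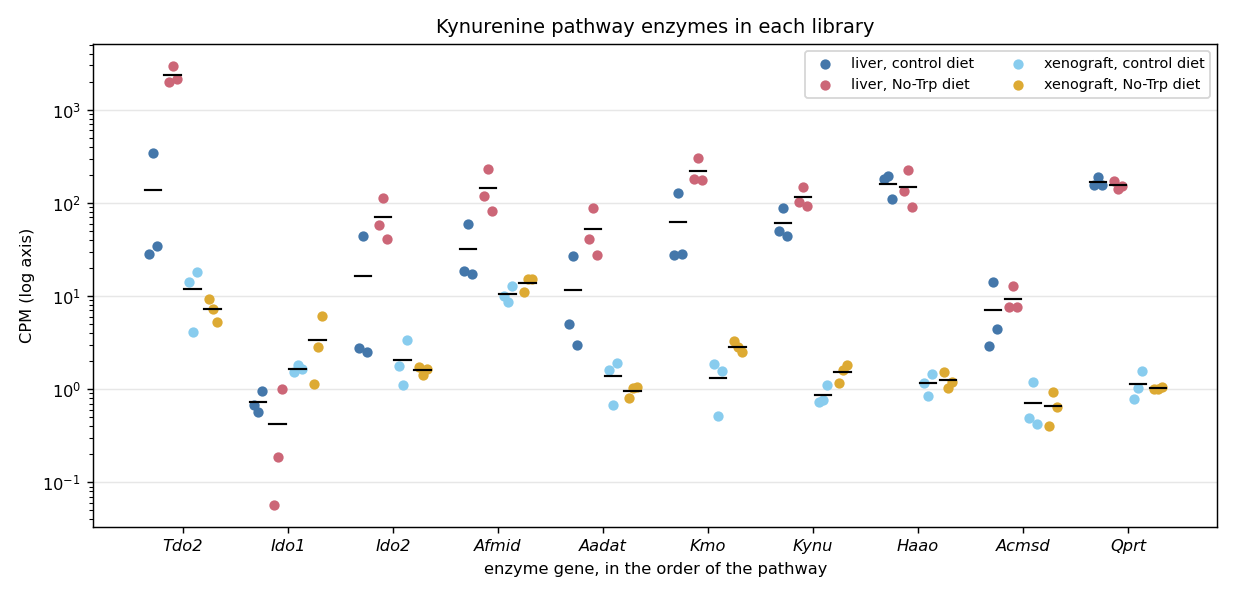
CPM of each enzyme (log axis) in each of the 12 libraries, in the order of the pathway, with 1 point per mouse and a black line at the group mean. Tdo2 separates the livers by diet most widely, from at most 347 CPM on the control diet to at least 1986 CPM on the No-Trp diet, and every enzyme but Ido1 averages lower in the xenografts than in the livers of the same diet.

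Tdo2, the dioxygenase that commits Trp to the pathway, measured 28.4, 347 and 34.5 CPM in control livers 101, 102 and 103. On the No-Trp diet it measured 1986, 2962 and 2158 CPM in livers 105, 107 and 108. The groups did not overlap, although the control livers spread widely because of mouse 102. The log2 fold change was 4.14 (SE 1.05, adjusted p = 0.0342, edgeR). Without mouse 102 it was 6.23 (adjusted p = 0.000657, edgeR), while leaving out any of the other mice gave values from 3.66 to 4.26 that no longer passed (adjusted p from 0.0588 to 0.122, edgeR).

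Afmid, the formamidase that releases kynurenine, measured 18.7, 59.9 and 17.4 CPM in the control livers and 119, 229 and 82.7 CPM in the No-Trp livers. All 3 No-Trp livers were above all 3 controls, and mouse 102 was again the highest control. The log2 fold change was 2.19 (SE 0.60, adjusted p = 0.0400, edgeR). It was 2.99 without mouse 102, 2.47 without mouse 108 (adjusted p = 0.0476, edgeR), and missed the threshold without each of the other mice. The start of Afmid overlaps Tk1 on the opposite strand by 83 exonic bases, 3.57% of its exons, and the strand setting of the counting is not given in the sources used here. Tk1 lay between 82.6 and 104 CPM in all 6 livers. A further gene model on the same strand, Gm20708, covers 67.3% of the exonic bases of Afmid and is not among the counted symbols.

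The 2 Ido genes, neighbors on chromosome 8, differed from Tdo2 and from each other. Ido2 measured 2.75, 44.2 and 2.48 CPM in the control livers and 57.4, 114 and 41.3 CPM in the No-Trp livers. Mouse 102 lay above No-Trp mouse 108, so the groups overlapped, and the log2 fold change of 2.14 (SE 1.12) did not pass (adjusted p = 0.193, edgeR). Without mouse 102 the value was 4.76 (adjusted p = 0.00227, edgeR). Ido1 was at the limit of detection, with 14, 10 and 24 reads in the control livers and 1, 3 and 13 reads in the No-Trp livers, and its log2 fold change of -0.89 did not pass (SE 0.84, adjusted p = 0.457, edgeR). Of 13 interferon gamma response genes 0 were called in the livers, from -0.53 for Cxcl10 to 0.95 for Iigp1 on the log2 scale.

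The enzymes that use kynurenine lay on average higher in the No-Trp livers without passing the threshold. Aadat, the aminotransferase that makes kynurenic acid, measured 5.02, 26.7 and 2.995 CPM in the control livers and 40.7, 87.4 and 27.6 CPM in the No-Trp livers. Its groups only just separated, mouse 102 lying next to No-Trp mouse 108, and the log2 fold change was 2.20 (SE 0.86, adjusted p = 0.0999, edgeR). Kmo, the mitochondrial hydroxylase at the other arm of the branch, measured 27.4, 129 and 28.1 CPM against 182, 304 and 174 CPM, with a log2 fold change of 1.86 (SE 0.65, adjusted p = 0.0743, edgeR). Kynu, the kynureninase, measured 50.2, 87.3 and 43.7 CPM against 104, 149 and 92.1 CPM, with a log2 fold change of 0.95 (SE 0.31, adjusted p = 0.0582, edgeR). Without mouse 102, Aadat, Kmo, Kynu, Ido2 and Acmsd joined Tdo2 and Afmid, which made 7 of 10 enzymes called higher and 0 lower, against 13.6% and 8.66% of all genes in that fit. With mouse 101, 103, 105 or 107 left out instead, 0 enzymes were called higher, and with mouse 108 left out, 1. DESeq2 over all 6 livers called Afmid, Kmo and Aadat higher, against 8.74% of genes, and gave no adjusted p for Tdo2.

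The last enzymes showed no such difference. Haao, which opens the ring of 3-hydroxyanthranilate, averaged 161 ± 45.6 CPM on the control diet and 150 ± 67.0 CPM on the No-Trp diet (SD, n = 3 each). Qprt, the entry to NAD synthesis, averaged 167 ± 20.01 and 154 ± 15.7 CPM (SD, n = 3 each). Their log2 fold changes were -0.08 (SE 0.36, adjusted p = 0.885) and -0.10 (SE 0.16, adjusted p = 0.662, edgeR). Acmsd, which competes with Qprt for the same intermediate, measured 2.94, 14.1 and 4.47 CPM against 7.72, 12.8 and 7.62 CPM, and its log2 fold change of 0.42 did not pass (SE 0.58, adjusted p = 0.617, edgeR). The reads of Acmsd overlap an antisense gene, 2900009J06Rik, by 94 exonic bases, and that gene held at most 8 reads in any library.

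**Figure D2:**
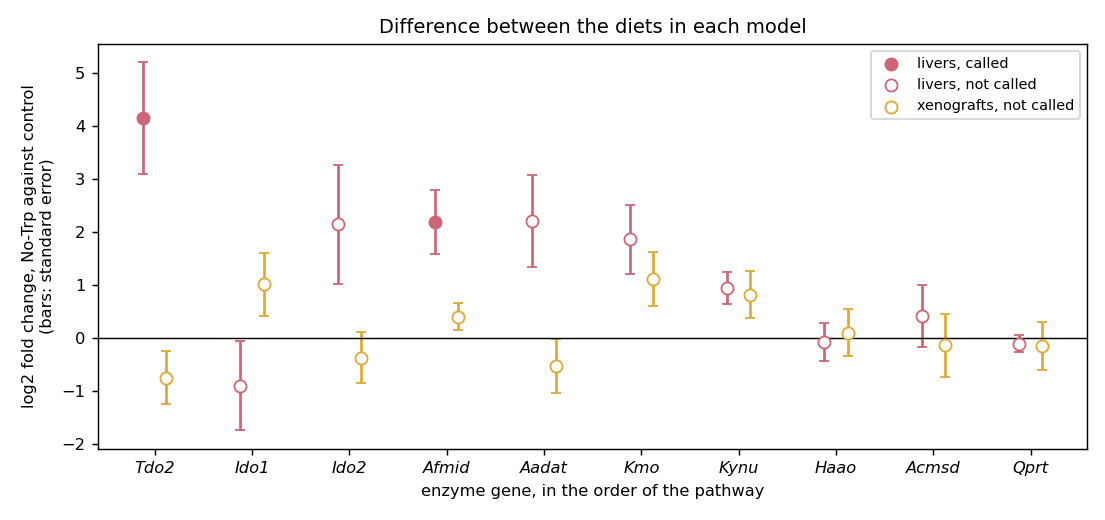
Log2 fold change of each enzyme on the No-Trp diet against the control diet, in livers and in xenografts (points, with bars of 1 standard error from edgeR, 3 mice against 3). Only Tdo2 (4.14) and Afmid (2.19) in the livers are filled as called, the values of Haao and Qprt lie close to 0 in both models, and no enzyme was called in the xenografts.

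Values per kilobase of exon put genes of unlike length on a common scale. The exon lengths are from GENCODE M21 and not from the annotation used for counting, so close ranks are approximate. On this scale the order of the enzymes in the livers differed between the diets. In control livers Haao averaged 111 CPM per kb, Qprt 81.7, Tdo2 39.8, Kmo 15.6, Afmid 13.8, Kynu 12.6, Ido2 6.72, Aadat 5.56, Acmsd 2.64 and Ido1 0.40. Each neighboring pair in that order overlapped between libraries except Acmsd and Ido1. The place of Tdo2 rested on mouse 102, without which Kynu averaged 9.83 CPM per kb, Tdo2 9.18, Afmid 7.76 and Kmo 7.01. In No-Trp livers Tdo2 averaged 690 CPM per kb and lay above Haao, at 104 CPM per kb, without overlap. Qprt, Afmid and Kmo followed at 75.3, 61.7 and 55.6 CPM per kb and Ido2, Aadat and Kynu at 28.9, 24.97 and 24.1 CPM per kb, and neighbors from Haao to Kynu overlapped. Acmsd, at 3.45 CPM per kb, and Ido1, at 0.23, stayed at the end of the order.

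The hepatocyte markers moved with the diet in the same livers. Of 25 markers 11 were called higher and 0 lower, against 9.28% and 7.27% of all genes. The median log2 fold change of the markers was 1.60, and that of the plasma protein gene Ahsg, the highest of them, was 2.702. The markers summed to between 23921 and 71264 CPM in control livers (mouse 102 highest) and to between 84281 and 205678 CPM in No-Trp livers. Of 10 proliferation genes 9 were called lower, from -1.63 for Ccnb2 to -2.39 for Mki67 on the log2 scale, with sums of 1361 to 1553 CPM on the control diet and 102 to 452 CPM on the No-Trp diet. These calls rested on single libraries as well. Without control liver 103, 8 genes of all 14240 were called, and 0 of the hepatocyte markers, proliferation genes and genes of the amino acid and glucocorticoid lists. Without control liver 101 or No-Trp liver 105, 0 hepatocyte markers and 0 proliferation genes were called, and without control liver 102, 18 and 9 (edgeR). When the enzymes were expressed per 1000000 reads of the 25 hepatocyte markers, Tdo2 lay between 1040 and 4869 in control livers and between 14403 and 25600 in No-Trp livers, still without overlap. On this scale Haao was lower on the No-Trp diet, from 2726 to 6561 down to 1085 to 1284, and so was Qprt, from 2674 to 6471 down to 681 to 1804. With the summed markers as library size, Tdo2 had a log2 fold change of 2.998 (adjusted p = 0.00138, edgeR) and was the only enzyme called higher, among 0.605% of all genes. Afmid had a log2 fold change of 0.52 and was not called (adjusted p = 0.496, edgeR). Ido1, Haao and Qprt were called lower on that scale, where the median of all genes was -1.84 and 62% of all genes were called lower.

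**Figure D3:**
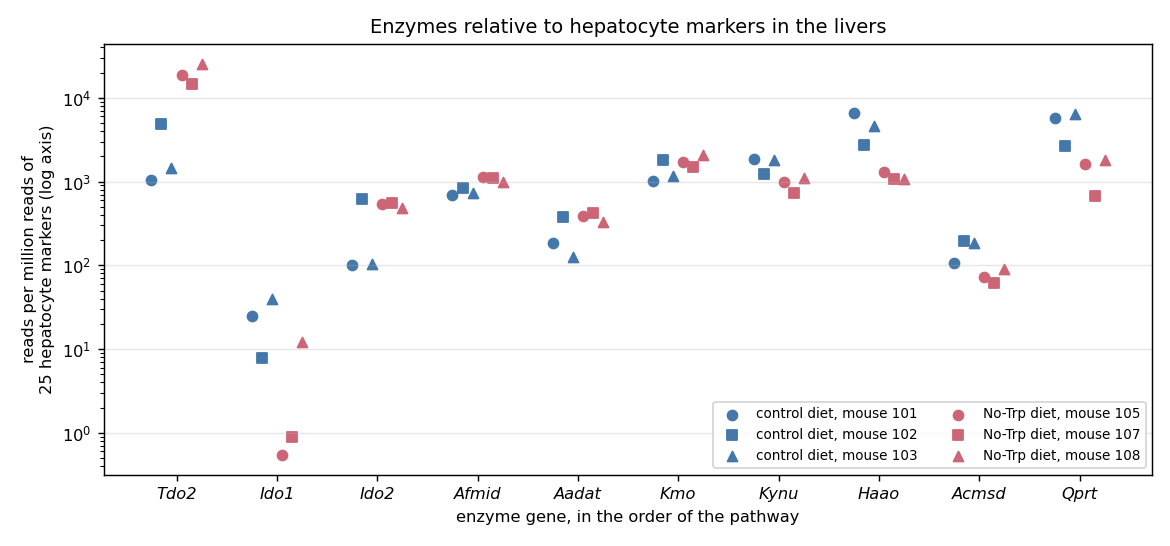
Reads of each enzyme per 1000000 reads of 25 hepatocyte markers (log axis) in the 6 livers, 1 symbol per mouse. Tdo2 lies above the controls in all 3 No-Trp livers (at least 14403 against at most 4869), and so does Afmid (at least 981 against at most 841), while Haao, Acmsd, Qprt and Kynu lie below them and Ido2, Aadat and Kmo overlap.

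**Figure D4:**
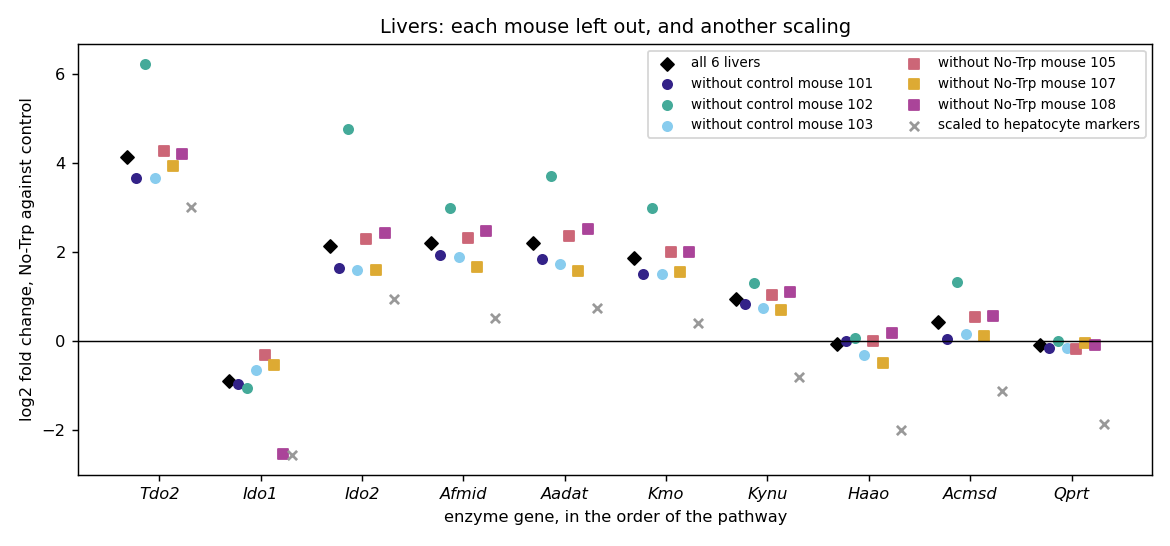
Log2 fold change of each enzyme in the livers with all 6 mice, with each mouse left out, and with the summed hepatocyte markers as library size. Values without control mouse 102 are the highest for Tdo2 (6.23), Ido2 (4.76), Aadat (3.70), Kmo (2.99) and Afmid (2.99), and the scaling to hepatocyte markers gives the lowest value of every enzyme.

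The sequences before the start sites are shown for the 2 called enzymes and for Aadat and Haao, which hold matches to an HNF4 core and to 1 arm of a glucocorticoid response element. They are the 250 bases before the RefSeq start in GRCm38.p6, 5′ to 3′ on the strand of the gene, with motif matches in capitals. Tdo2 is from chr3:81975729-81975978 (minus strand), Afmid from chr11:117825669-117825918 (plus), Aadat from chr8:60505874-60506123 (plus) and Haao from chr17:83846791-83847040 (minus). For Tdo2, Haao and Aadat the annotated gene begins further upstream in GENCODE M21, so that the windows of Tdo2 and Haao lie wholly inside the annotated gene, and that of Aadat, its HNF4 match included, for the greater part.
Tdo2: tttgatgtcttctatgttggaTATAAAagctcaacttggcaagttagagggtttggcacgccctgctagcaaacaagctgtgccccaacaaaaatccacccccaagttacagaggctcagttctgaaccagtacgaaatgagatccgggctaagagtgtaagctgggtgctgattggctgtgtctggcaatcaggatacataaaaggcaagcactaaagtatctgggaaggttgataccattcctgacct
Afmid: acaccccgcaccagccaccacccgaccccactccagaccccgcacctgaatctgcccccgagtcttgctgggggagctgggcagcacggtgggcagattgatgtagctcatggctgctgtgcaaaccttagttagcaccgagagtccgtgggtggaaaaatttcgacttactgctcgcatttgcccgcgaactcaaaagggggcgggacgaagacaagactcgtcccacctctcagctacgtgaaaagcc
Aadat: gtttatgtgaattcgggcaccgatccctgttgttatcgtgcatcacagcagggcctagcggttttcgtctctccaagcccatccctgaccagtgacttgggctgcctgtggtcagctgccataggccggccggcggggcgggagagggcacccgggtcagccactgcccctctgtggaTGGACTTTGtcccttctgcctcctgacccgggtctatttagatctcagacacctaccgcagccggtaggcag
Haao: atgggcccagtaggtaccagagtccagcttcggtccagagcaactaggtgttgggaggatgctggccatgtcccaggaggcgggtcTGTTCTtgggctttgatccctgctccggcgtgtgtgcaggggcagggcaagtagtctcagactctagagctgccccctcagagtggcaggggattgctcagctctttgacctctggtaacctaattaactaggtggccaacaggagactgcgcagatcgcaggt
Matches were sought on both strands, from 250 bases before to 50 after the start, in the 7 enzymes with an entry (Tdo2, Afmid, Kmo, Haao, Acmsd, Qprt and Aadat). The letters were CAAAGTCCA for an HNF4 core, TTGCNNAA for C/EBP, TGTTCT for 1 arm of a glucocorticoid response element, CACGTG for an E-box and TATAAA for a TATA box. Haao held the glucocorticoid letters with their first base at -164. Aadat held the HNF4 core on the opposite strand at -72, letters present in 0.475% of 32851 promoters. Tdo2 held TATAAA at -229, and Kmo the glucocorticoid letters at 15 bases after the start. The window of Kmo also lies wholly inside the gene annotated in GENCODE M21, and that of Qprt for the greater part. The C/EBP and E-box letters were found in 0 of the 7 windows. Among all promoters 19% held the glucocorticoid letters, 13.6% TATAAA, 10.8% the C/EBP letters and 7.15% the E-box. None of these matches overlapped another.

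Neighboring steps of Trp metabolism were examined by lists. Of 8 genes that oxidize the product of Acmsd to acetyl-CoA, 2 were called higher in No-Trp livers and 0 lower, against 9.28% and 7.27% of all genes. Aldh8a1, the dehydrogenase that follows Acmsd, measured 104, 190 and 102 CPM in control livers and 348, 446 and 355 CPM in No-Trp livers (log2 fold change 1.56, SE 0.29, adjusted p = 0.0196, edgeR). Gcdh, glutaryl-CoA dehydrogenase, measured 236, 229 and 152 CPM against 365, 636 and 400 CPM (log2 fold change 1.204, SE 0.29, adjusted p = 0.0291, edgeR). Both sets of livers were separate by diet.

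Of 4 genes tested among the last steps to NAD, 3 other kynurenine aminotransferases, 4 genes of the serotonin branch and 2 tryptophanyl-tRNA synthetases, 0 were called in the livers, against 16.5% of all genes. Il4i1, the amino acid oxidase that makes indole 3-pyruvate from Trp, had 0 reads in all 3 control livers, 3, 5 and 0 reads in the No-Trp livers and at most 7 in any xenograft, so no difference was detectable at this depth. Tph1, which starts serotonin synthesis, held at most 4 reads in any liver and was not tested there. The degradation of other amino acids was compared in the same livers. Of all genes tested in the livers 9.28% were called higher, the share to set beside the lists that follow. The lists were chosen with earlier results of these data known, so their counts carry no test. Of 6 enzymes of phenylalanine and tyrosine degradation 5 were called higher, with a median log2 fold change of 1.78 and the highest value, 4.43, for Tat. Of 4 enzymes of histidine degradation 3 were called higher, with a median of 1.904, from 0.98 for Uroc1 to 2.68 for Hal. Tat, tyrosine aminotransferase, measured 37.1, 496 and 56.3 CPM in control livers and 3481, 5097 and 3909 CPM in No-Trp livers, with mouse 102 again the highest control. Of 8 glucocorticoid response genes, 4 were called higher, from -0.01 for Mt2 to 4.43 for Tat on the log2 scale. Tat is counted both in this list and in that of tyrosine degradation. Fkbp5, a co-chaperone of the glucocorticoid receptor, measured 132, 118 and 143 CPM in control livers and 478, 483 and 384 CPM in No-Trp livers. For Fkbp5 mouse 102 was the lowest control. Fkbp5 was named after its values were seen, so they do not stand for the list. With 1 library left out the number called ranged from 0 to 6 in the phenylalanine and tyrosine list, from 0 to 4 in the histidine list, from 0 to 5 in the glucocorticoid list and from 0 to 3 in the list that follows Acmsd (edgeR).

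Across the 6 livers the genes most like the mean of the enzymes' standardized log2 CPM were Inhbc (r = 0.999), Igfals (0.998), Ugt2a3 (0.997), Fgf1 (0.997) and Slco1b2 (0.993), of 10746 genes with a mean of at least 100 counts. Spearman's rho was 1 for Inhbc, Igfals and Fgf1 and 0.943 for the other two. These values describe 6 libraries that share 2 diets and carry no test, and Slco1b2 is one of the hepatocyte markers. Among the enzymes themselves r with the mean ran from 0.895 (Tdo2) to 0.987 (Ido2) for the 7 with a positive log2 fold change, and was 0.375 for Haao, 0.137 for Qprt and -0.55 for Ido1. Each enzyme is part of the mean it is compared with, and those 7 make up most of it, so these values are no test. A likeness over all 12 libraries is not given because livers and xenografts form separate clusters.

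In the xenografts 0 of 10 enzymes were called in either direction and 0 had an unadjusted p under 0.05, where 0.36% of all 14704 genes were called (edgeR). DESeq2 also called 0 of them, with 1 at an unadjusted p under 0.05. Tdo2 measured 12.1 ± 7.16 CPM on the control diet and 7.25 ± 1.99 CPM on the No-Trp diet (SD, n = 3 each), with a log2 fold change of -0.74 (SE 0.50, adjusted p = 0.501, edgeR). Afmid, at 10.5 ± 2.24 and 13.96 ± 2.44 CPM (SD, n = 3 each), held 202 to 461 reads per library and had a log2 fold change of 0.41 (SE 0.25, adjusted p = 0.452, edgeR). These 2 enzymes alone exceeded 100 reads in every xenograft.

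Kmo held 38, 13 and 26 reads in control xenografts 40, 41 and 43 and 90, 84 and 59 reads in No-Trp xenografts 35, 36 and 37. Kynu held 15, 19 and 18 reads against 32, 48 and 43 reads. For both genes every No-Trp tumor lay above every control, as did one group for 22.6% of all genes in either direction, and the log2 fold changes of 1.11 (SE 0.51) and 0.82 (SE 0.45) did not pass (adjusted p = 0.314 and 0.393, edgeR). Ido1 held 31, 45 and 27 reads in control tumors and 31, 84 and 145 in No-Trp tumors, which overlapped, with a log2 fold change of 1.01 (SE 0.59, adjusted p = 0.422, edgeR). The remaining enzymes, Ido2, Aadat, Haao, Acmsd and Qprt, held between 7 and 55 reads, and their log2 fold changes lay between -0.53 and 0.10.

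The ratio of the kynurenine-using arms within a library does not depend on library size. In xenografts the log2 ratio of Kmo to Aadat, per exon length, was -1.07 ± 0.31 in control tumors and 0.64 ± 0.41 in No-Trp tumors, and that of Kynu to Aadat was -1.79 ± 0.67 and -0.55 ± 0.12 (SD, n = 3 each). Both groups were separate, with an exact two-sided permutation p of 0.1, the smallest that 3 against 3 allows (adjusted over 6 comparisons, 0.3). In livers the log2 ratio of Kmo to Aadat was 1.72 ± 0.51 and 1.28 ± 0.43 and overlapped (exact permutation p = 0.4), and that of Kynu to Aadat was 1.77 ± 1.12 and 0.09 ± 0.49 and overlapped as well (exact permutation p = 0.2). Only control liver 102, at 0.51, overlapped with the No-Trp livers, which lay between -0.43 and 0.54, since control livers 101 and 103 were at 2.12 and 2.67. The Kynu to Aadat ratio was on average lower on the No-Trp diet in livers, with a log2 difference of -1.68 over all mice and -2.31 without 102, and higher in xenografts. The ratio of Acmsd to Qprt overlapped between the diets in both models (exact permutation p = 0.3 in livers and 1 in xenografts). With 3 mice in each group none of these comparisons could reach 0.05.

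Markers of other tissues also differed between the diets in the xenografts, where 0.245% of all genes were called higher. Of 6 adipocyte markers 3 were called higher on the No-Trp diet, from 3.44 for Fabp4, not called, to 5.48 for Plin1 on the log2 scale, with sums of 14.2 to 69.1 CPM against 389 to 823 CPM, and the skeletal muscle markers, 0 of 5 called, summed to 1.81 to 17.9 CPM against 27.7 to 56.3 CPM. Hepatocyte markers summed to 2104 to 5491 CPM and 2372 to 4067 CPM, with 0 of 25 called, and macrophage markers to 819 to 1135 CPM and 841 to 1298 CPM, with 0 of 11 called. Of 8 dendritic cell markers 0 were called, with a median log2 fold change of 1.39, from -0.91 for Itgax to 2.81 for Xcr1, and 4 at an unadjusted p under 0.05, while their sum overlapped between the diets (135 to 165 against 71.4 to 214 CPM). Of 7 endothelial markers 0 were called, with a median of 0.74, from -0.26 for Emcn to 2.65 for Lyve1, 1 at an unadjusted p under 0.05 and sums of 54.5 to 136 against 138 to 224 CPM (edgeR). The part of these markers in the values of Kmo, Kynu and Ido1 was not tested.

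The diet response differed between the models for Tdo2. Its log2 fold change was 4.84 larger in livers than in xenografts (SE 1.22, adjusted p = 0.0253, edgeR interaction term over 12 libraries). With 1 enzyme called as larger in livers and 0 as smaller, the shares of all 15472 genes were 6.01% and 6.7%. The difference was at least 4.36 without each library in turn, but its adjusted p then lay between 0.0503 and 0.0642 without control liver 103, No-Trp liver 107 or xenograft 40, 43, 36 or 37 (edgeR). For Aadat the difference was 2.68 (SE 1.08, adjusted p = 0.110) and for Afmid 1.75 (SE 0.67, adjusted p = 0.0980), and neither passed (edgeR). The difference for Kynu was 0.09 (SE 0.47) and for Qprt 0.01 (SE 0.27). Without control liver 102, 5 enzymes were called as larger in livers, against 8.75% of genes. With any other library left out instead, 0 or 1 were called as larger.

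Between the models, 9 of the 10 enzymes were lower in xenografts than in livers, on either diet, where 20.2% (control diet) and 19.1% (No-Trp diet) of genes were called lower (edgeR). On the control diet 0 enzymes were called higher, against 23.3% of genes. Of 25 hepatocyte markers 24 were called lower as well, with a median log2 difference of -5.68 against -3.40 for the enzymes. All 6 enzymes of phenylalanine and tyrosine degradation and all 4 of histidine degradation were also called lower. Per 1000000 hepatocyte marker reads, Kmo, Kynu, Haao and Qprt still lay below the control livers. Afmid (1804 to 6139 against 685 to 841) and Ido1 lay above, and the others overlapped. On the control diet Qprt was 149-fold lower, Haao 140-fold, Kynu 70.4-fold, Kmo 47.5-fold, Tdo2 11.4-fold, Acmsd 9.85-fold, Aadat 8.35-fold, Ido2 8.01-fold and Afmid 3.06-fold. Without control liver 102 Kmo was 22.02-fold lower, Acmsd 5.26-fold, Aadat 2.98-fold and Tdo2 2.696-fold, all of them still called, while the log2 differences of Ido2 (-0.39) and Afmid (-0.83) did not pass, which left 7 enzymes called lower against 19.4% of genes. Ido2 also missed the threshold without xenograft 40 or 41 and with the mark of resubmission as a covariate, and Afmid without xenograft 41 (edgeR). The groups were separate for each of these but Ido2, where control livers 101 and 103 (2.75 and 2.48 CPM) lay below xenograft 43 (3.35 CPM), and such separation was found in 65.1% of all genes. On the No-Trp diet Tdo2 was 326-fold lower in the xenografts, the enzyme with the largest difference, and all 9 were separate, as were 66.9% of all genes.

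Ido1 was the exception. It averaged 0.73 ± 0.20 CPM in control livers and 1.65 ± 0.14 CPM in control xenografts (SD, n = 3 each), and the log2 difference of 1.16 did not pass (SE 0.75, adjusted p = 0.200, edgeR). On the No-Trp diet it was 8.39-fold higher in xenografts (adjusted p = 0.00643, edgeR), where 24.5% of genes were called higher, from 1 to 13 reads in the livers and 31 to 145 in the tumors. In that comparison the median of all genes was 0.15 on the log2 scale. Per kilobase of exon, Afmid led the order in control xenografts at 4.49 CPM per kb, followed by Tdo2 at 3.51, which overlapped with it, and Kynu was last at 0.18. Tissue, strain, host and cell line differ together between the models and cannot be told apart. By the methods, MYC-ON mice were males and xenografts grew in females, with repeats in males, so sex may differ as well.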

How the data were processed

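RNA-seq read counts per gene of 12 libraries were used, in the unit in which the authors deposited them: raw counts, not normalized. Per the submitters' processing notes and the methods, reads were trimmed with Trim Galore, aligned to mm10 (GRCm38.p6) with STAR 2.7.2b and counted with HTSeq. The strand setting of the counting is not given in the sources used here. Rows for uncounted reads were left out of library sizes. Samples were grouped by the labels. The enzymes and lists were chosen with earlier results of these data known, and all 10 enzymes are named. Of lists of Trp metabolism, the called genes, Il4i1 and Tph1 are named, and of the other lists described the genes with the largest and smallest change. Some genes that this rule would name are not reported here. Fkbp5 was named after its values were seen.

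Each diet comparison was fitted on the 6 libraries of its model, and the other comparisons on all 12, by the two-sided quasi-likelihood test of edgeR 4.0.16 (R 4.3.3) after filterByExpr, with TMM factors and robust glmQLFit. All 10 enzymes passed the filter in each fit. Adjusted p-values are Benjamini-Hochberg over all genes tested. A gene counted as called when the adjusted p was 0.05 or less and the log2 fold change 1 or more in size, the SE is the log2 fold change divided by the square root of F, and CPM uses TMM factors over 12 libraries. Within a group the labels tell the mice apart only by number and give no litter or cage. The p-values measure the spread between these mice, taken as independent, and all xenografts came from 1 cell line. Every pair of replicates differed beyond sampling noise (a chi-square of 36.8 or more for each degree of freedom), so none was counted as a repeat. The spread between mice pooled over all genes, the square root of the common dispersion of edgeR, was 31.6% in livers and 28.7% in xenografts. Single enzymes could spread more widely, such as Tdo2 in control livers at 137 ± 182 CPM (SD, n = 3). Symbols matched GENCODE M21 exon lengths for 98.3% of genes, 894 of them through an older symbol. Promoter sequences are from RefSeq. Alternatives were DESeq2 1.42.0, RLE factors, library totals, no filter, at least 10 counts in every library, the resubmission mark as covariate, no fold threshold, all libraries in 1 fit, hepatocyte markers as library size, and leaving out each library. The steps were tested on simulated data that held no outlying library, which cannot check results that rest on single mice.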

Additional observations from a re-analysis of the deposited data

Results flagged for a closer look

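The diet response differed between livers and xenografts, by the edgeR interaction term over 12 libraries, for Tdo2 and for 9 of the other genes named. Over all 15472 genes tested, 12.7% were called in this comparison. Tat, Mki67, Ccnb2, Plin1, Fabp4 and Lyve1 were named for the largest or smallest diet change in their lists. Fkbp5 was named after its values were seen, so the count of 9 carries no test. The log2 fold change on the No-Trp diet was larger in livers than in xenografts by 4.84 for Tdo2 (SE 1.22, adjusted p = 0.0253). The difference was 1.94 for Aldh8a1 (SE 0.51, adjusted p = 0.0284) and 1.35 for Gcdh (SE 0.33, adjusted p = 0.0218), both of them genes that act after Acmsd. In the xenografts Tdo2 held 102 to 294 reads and Aldh8a1 20 to 64 reads. The difference was also positive for Tat (4.97, adjusted p = 0.0237) and Fkbp5 (1.195, adjusted p = 0.00718). It was negative for the proliferation genes Mki67 (-2.97, adjusted p = 0.00868) and Ccnb2 (-2.13, adjusted p = 0.0235), which were lower in No-Trp livers. It was negative as well for the adipocyte markers Plin1 (-4.40, adjusted p = 0.0117) and Fabp4 (-4.51, adjusted p = 0.0103) and the endothelial marker Lyve1 (-2.40, adjusted p = 0.0322). Outliers were not sought because each group holds 3 mice.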

How the results depend on the processing

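Of the alternatives that use all libraries, RLE factors, at least 10 counts in every library, the resubmission mark as a covariate, library totals and no fold threshold left 2 enzymes called in the livers, and DESeq2 called 3 but gave no adjusted p for Tdo2. The number called higher in the livers was 0 with no filter on low counts, 4 with all libraries in 1 fit, and 1, with 3 called lower, on the scale of the hepatocyte markers. On that scale Kynu (-0.81) and Acmsd (-1.13) changed sign, and without composition factors the median of all genes was -0.30 in the livers. Leaving out 1 library moved the number called higher from 0 to 7 in the livers, where Haao ranged from -0.50 to 0.18 on the log2 scale, and over all genes the number called ranged from 8 to 3207. For the difference between the models the number called higher was 3 with DESeq2, 2 with the resubmission mark, 0 with no filter, and from 0 to 5 with 1 library left out, and the number called lower from 0 to 1. The number called higher in No-Trp xenografts against livers was 0 with at least 10 counts in every library, where Ido1 was not tested.

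Values near 0 changed sign. For the difference between the models, without composition factors Kynu was -0.30 and Qprt -0.35, and Qprt was -0.00984 with no filter, -0.00041 with at least 10 counts and -0.0446 with the resubmission mark. In xenografts the resubmission mark, which leaves 1 unmarked control, gave 0.41 for Acmsd and 0.38 for Qprt. With 1 library left out the xenograft values ranged from -0.68 to 0.15 for Ido2, from -0.092 to 0.30 for Haao, from -0.48 to 0.50 for Acmsd and from -0.36 to 0.16 for Qprt. The differences between the models then ranged from -0.15 to 0.44 for Kynu, from -0.64 to 0.030 for Haao, from -0.12 to 1.45 for Acmsd and from -0.28 to 0.21 for Qprt. Of 851 values of single enzymes over all comparisons, 776 had the direction and the side of the threshold of the reported fit. The others were 25 that no longer passed, 20 that passed newly and 30 that changed sign. For the diet in livers alone, 119 stayed the same, 12 no longer passed, 12 passed newly and 5 changed sign. Those that no longer passed there were 6 of Tdo2 and 6 of Afmid, the 2 enzymes called. The cause of these changes was not tested. The branch ratios moved by less than the spread between mice. No paired analysis was possible because no groups share animal numbers. Depth limits Ido1 in the livers and all enzymes but Tdo2 and Afmid in the xenografts, which held at most 145 reads.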
